A study of Mus musculus with 2 samples.

Results

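Myc, Max, Mxd1, Mxd3, Mxd4, Mxi1 and Mnt form the core of the Myc and Mxd network. The 7 genes were chosen by name from the 32285 genes of the count matrix, by a rule that holds no measured value of theirs, and all 7 were detected. They were followed in thymocytes of Ctrl and T-KO mice that had been sorted as invariant natural killer T (iNKT) cells.

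Myc is a transcription factor that binds DNA as a heterodimer with Max, mostly at the E-box, and drives genes for ribosome production, nucleotide synthesis, metabolism and cell division. Mxd1, Mxd3, Mxd4, Mxi1 (also named Mxd2) and Mnt compete for Max and bind the same E-boxes, where they recruit Sin3 and histone deacetylases and repress. In developing thymocytes Myc is known for the bursts of growth and division that follow receptor signals, and most Mxd genes are known to rise when cells leave the cycle, whereas Mxd3 is known from dividing cells.

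T-KO mice carried floxed Kidins220 and a Cre driven by the proximal Lck promoter, which acts early in T cell development, whereas Ctrl mice kept Kidins220, and all were on the C57BL/6 background and, in the study as a whole, 6 to 46 weeks old. For each genotype the cells of 4 thymi were pooled, so that a population stands for a pool and not for a mouse. TCRβ+ CD1d tetramer+ CD24+ NK1.1- cells were sorted as stage 0 and TCRβ+ CD1d tetramer+ NK1.1+ CD24- CD44+ cells as stage 3, in 2 parallel runs, which gave 8 populations. The populations were marked with hashtag antibodies, mixed and sequenced as 1 droplet library.

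The stage and genotype of the populations could not be used here. The labels pair populations with hashtags 1 to 8, but 99.9% of the hashtag UMIs lay on rows 11 to 18 of the matrix, and no source used here says which population these rows hold. The rows are therefore given by number, without a stage or genotype, and no p-value is given. A UMI is a counted mRNA molecule, and a level is given as UMIs per 1000000 gene UMIs (CPM). Intervals are exact Poisson 95% intervals, which cover counting error only.

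Of 16179 barcodes, 12147 had at least 1000 genes and at most 5% mitochondrial UMIs, and 10007 of these had at least 80% of at least 10 hashtag UMIs on 1 row. The 4 odd-numbered rows held 4249 cells and the 4 even-numbered rows 5758 cells. Rows 11 to 18 held 1176, 1752, 1601, 2162, 889, 577, 583 and 1267 cells, and their gene UMIs ran from 2283162 in row 16 to 14601545 in row 13. The median cell had 3828 UMIs. Cells of odd-numbered rows were deeper, with row medians of 6500 to 8068 UMIs against 3258 to 3804 in even-numbered rows.

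Odd-numbered and even-numbered rows differed in the markers of the sorts. Klrb1c, which encodes NK1.1, stood at 328 to 444 CPM in the even-numbered rows and at 4.78 to 6.57 CPM in the odd-numbered ones. Cd24a was at 23.3 to 34.2 CPM in the even-numbered rows and at 313 to 365 CPM in the odd-numbered ones. The defining iNKT genes were close to absent from the odd-numbered rows. Trav11, the invariant receptor segment, was at 0.205 to 1.14 CPM there against 39.5 to 56.5 CPM, and Zbtb16, which encodes the iNKT factor PLZF, was at 4.72 to 7.41 CPM against 64.7 to 74.7 CPM. The iNKT label of the sort thus did not hold for most odd-row cells. These levels were not used to name the rows.

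The odd-numbered rows were a mixture and were split by the first gene met. Cells with at least 2 UMIs of the B cell gene Cd79a numbered 810, those with at least 5 UMIs of Cst3, a gene of myeloid cells, 972, those with a UMI of the recombinase gene Rag1 418, and those with at least 2 UMIs of Ikzf2, which encodes Helios, 1106, while 943 cells met no limit. These groups are called Cd79a, Cst3, Rag1, Ikzf2 and rest cells. The groups are ranges and not types, and 855 odd-row cells lay at the Ikzf2 limit, with 1 or 2 UMIs. Ms4a1, a B cell marker that the split did not use, was at 526 to 687 CPM in the Cd79a cells and at most 3.82 CPM in the other 4 groups.

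The E-box is the site through which these proteins meet their targets and each other's genes, and windows around it are shown because 3 of the members carry it near a start site. In RefSeq windows of GRCm38.p6 from 250 bases before to 50 bases after a start, CACGTG, which reads the same on both strands, was present for Max, Mnt and Mxd4, that is in 3 of 8 windows of 6 members. Of all 32851 windows 7.15% held it. Capitals mark the E-box in these 30 bases, written 5′ to 3′ on the strand of the gene.
Max: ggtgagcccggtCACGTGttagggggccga
Mnt: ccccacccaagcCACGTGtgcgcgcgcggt
Mxd4: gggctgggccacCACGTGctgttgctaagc
The Max window lies at chr12:76962234-76962263 on the minus strand, wholly in a non-coding exonic stretch of Max. Its E-box begins 3 bases before the start used and spans that start. The Mnt window lies at chr11:74830789-74830818 on the plus strand, its E-box 123 bases before the start used, and 13 of its bases fall in an annotated Mnt exon. The Mxd4 window lies at chr5:34187912-34187941 on the minus strand, upstream of the annotated gene, with its E-box 219 bases before the start. Among 36 genes listed as induced by Myc, 29 had windows, and 11 of these held an E-box. These matches are letters in a window and not measured binding.

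Of the members, 5 separated the odd-numbered from the even-numbered rows and the other 2 did not. A gene was called higher or lower here when its 4 odd-row levels did not overlap its 4 even-row levels, among genes at 20 CPM or more. Max, Mxd1 and Mxd4 were called lower in the odd-numbered rows, as were 28.0% of the 6696 genes compared. Mxd3 and Mxi1 were called higher, as were 34.3% of genes. With so many genes called, the separation of 5 members is not particular to the network.

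Myc itself, the activator, overlapped between both sets of rows. It stood at 133, 179, 204 and 211 CPM in rows 11, 13, 15 and 17, and at 181, 165, 210.2 and 173 CPM in rows 12, 14, 16 and 18. Row 11 was below every other row, with an interval of 126 to 141 CPM that met no other. These levels pool cell groups whose shares differ by row, with Cst3 cells at 33.2%, 16.9%, 24.2% and 16.5% of rows 11, 13, 15 and 17. Among the odd-numbered rows, row 11 was lowest in Myc in Cst3, Ikzf2 and rest cells. It was level with row 15 in Cd79a cells and second highest in Rag1 cells. The median difference, odd minus even, was 0.10 on the log2(CPM + 10) scale, and its sign depended on the processing. It was -0.30, with the odd-numbered rows all below the even-numbered ones, when cells with over 4000 genes were left out, and -0.02, -0.10 and -0.08 with median-of-ratios scaling, with each cell weighted equally, and with each cell thinned to 1500 UMIs.

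Max, the partner for which the other members compete, was at 77.9, 79.8, 79.0 and 76.8 CPM in rows 11, 13, 15 and 17. In rows 12, 14, 16 and 18 it was at 107, 117, 115 and 111 CPM. The odd-numbered rows could not be told from each other by their intervals, nor could the even-numbered ones. The median difference was -0.47.

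Mxd4, a repressor linked to quiescence and differentiation, showed the widest gap among the members called lower, over all cells at the main settings. Mxd1 differed more with cells thinned to 1500 UMIs and with Ikzf2 cells alone. Mxd4 was at 72.2, 77.6, 71.5 and 80.6 CPM in rows 11, 13, 15 and 17. In rows 12, 14, 16 and 18 it was at 169, 145, 235 and 206 CPM. The difference was -1.22 on the log2(CPM + 10) scale and shrank to -0.68 with cells thinned to 1500 UMIs, still without overlap. The even-numbered rows were not alike, and their order was row 14, row 12, row 18 and row 16, and among neighbours in this order the intervals of rows 18 and 16 alone overlapped. Whether this order follows genotype could not be examined.

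Mxd1, a repressor induced as cells differentiate, was at 28.6, 20.5, 17.6 and 19.6 CPM in rows 11, 13, 15 and 17. In rows 12, 14, 16 and 18 it was at 41.3, 55.6, 33.7 and 56.1 CPM. The intervals of rows 11 and 16 met, and with cells thinned to 1500 UMIs both Mxd1, at -0.75 against -0.95, and Max, at -0.42 against -0.47, overlapped between the sets of rows. Row 16 was the lowest even-numbered row for Mxd1 and the highest for Mxd4.

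Mxd3, the family member of dividing cells, was at 27.0, 37.3, 42.3 and 41.3 CPM in rows 11, 13, 15 and 17. In rows 12, 14, 16 and 18 it was at 8.59, 5.20, 3.94 and 9.28 CPM, and its difference of 1.55 was the largest of the members. Mxi1, whose product also antagonises Myc, was at 23.0, 26.8, 30.3 and 38.3 CPM in rows 11, 13, 15 and 17. In rows 12, 14, 16 and 18 it was at 14.9, 16.3, 11.4 and 13.6 CPM. Both were thus higher in every odd-numbered row, as the plot of levels by row shows. Mnt, a broadly expressed antagonist, lay between 14.7 and 23.3 CPM in all rows, and below 20 CPM on average it was not among the genes compared.

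**Figure D1:**
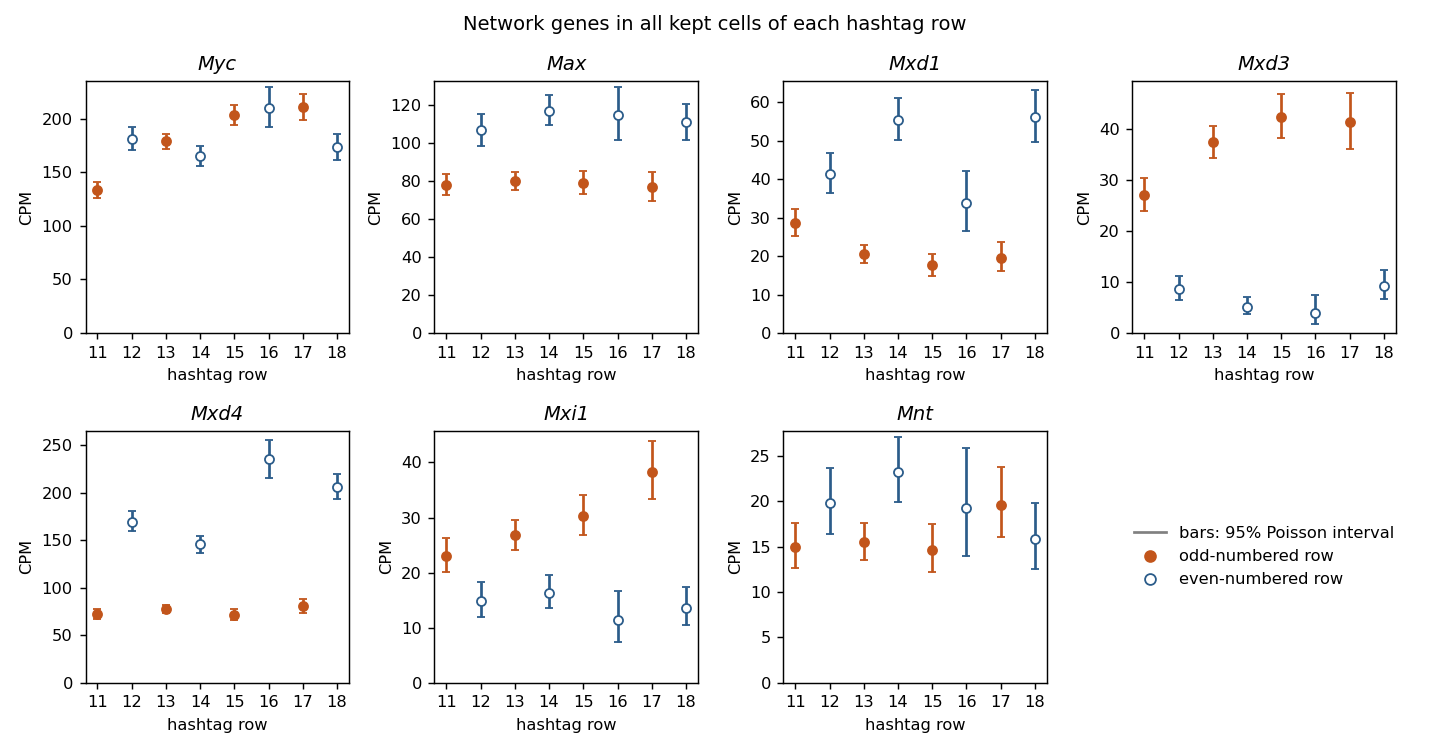
Level (CPM, linear axis from 0) of each network gene in all kept cells of hashtag rows 11 to 18, with exact Poisson 95% intervals. Mxd4 lies at 71.5 to 80.6 CPM in the odd-numbered rows and at 145 to 235 CPM in the even-numbered ones, whereas Myc overlaps.

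Since the odd-numbered rows held other cell types, the Ikzf2 cells alone were set against the even-numbered rows. The same 5 members were called, Mxd3 and Mxi1 among the 44.9% of 6718 genes called higher and Max, Mxd1 and Mxd4 among the 22.6% called lower. The differences were 1.40 for Mxd3, 1.06 for Mxi1, -0.74 for Mxd1, -0.59 for Mxd4 and -0.40 for Max. Myc overlapped again, at 161 to 228 CPM in Ikzf2 cells.

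Within the odd-numbered rows a gene was called when it differed at least 1.5-fold, on the log2(CPM + 10) scale, in the same direction in every row with at least 20 cells in both groups. Myc varied between these groups. It was at 66.1, 71.8, 66.4 and 145 CPM in the Cd79a cells of rows 11, 13, 15 and 17. It was at 98.0, 120.4, 109 and 161 CPM in the Cst3 cells. The rest cells held 210.0, 246, 247 and 240.4 CPM, above both in every row. The Rag1 cells held 347, 266, 367 and 235 CPM, and the Ikzf2 cells 161, 213, 207 and 228 CPM.

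Against rest cells, the Cd79a cells had lower Myc, Mxd3 and Mxi1, with median differences of -1.59, -1.67 and -1.05. Of 6492 genes, 20.4% were called lower and 7.90% higher in this comparison. Row 17, with 58 Cd79a cells, had more Myc in these cells than the other rows. T cell markers were also higher in them, at a summed 471 CPM against 198, 230 and 199 CPM in rows 11, 13 and 15. So was a list of G2 and M genes, at 1848 against 771, 739 and 997 CPM. No member was called in Cst3 cells, where 9.04% of genes were called higher and 5.47% lower, and the Myc difference fell short of 1.5-fold in row 17. Mycl, a Myc paralog, was called higher in the Cst3 cells, at a median of 73.9 CPM against 0.645 CPM in rest cells.

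Rag1 cells and rest cells did not differ by the call in any member, with 0.219% of genes called higher and 2.70% lower. Mxd3 was at 69.1, 78.9, 59.8 and 67.3 CPM in Rag1 cells and at 29.9, 54.7, 62.8 and 45.1 CPM in rest cells. Row 15 went against the other rows. The Rag1 cells of row 11 were shallower than those of the other rows, with a median of 3684.5 against 14409 to 15274 UMIs.

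Mxd4 separated the Ikzf2 cells from the Rag1 cells. It was at 103, 122, 119 and 132 CPM in the Ikzf2 cells of rows 11, 13, 15 and 17, and at 52.2, 61.8, 48.0 and 51.2 CPM in the Rag1 cells. In this comparison Mxd4 was the only member called, lower in Rag1 cells by -1.02, as were 6.27% of 6551 genes, while 1.47% were called higher. The Rag1 cells also held more division signal, with a G2 and M list median of 0.67 and an S phase median of 0.54 against -0.03 for all genes, and 3 of 20 and 3 of 19 of these genes called higher. They were deeper in rows 13, 15 and 17, where Ikzf2 cells had medians of 5270.5 to 5962 UMIs. The part of division and depth in the Mxd4 difference was not tested. The rest cells held 100.6, 60.7, 68.0 and 59.1 CPM. Rows 13, 15 and 17 thus had more Mxd4 in Ikzf2 than in rest cells, whereas row 11 had equal levels, and no member was called between Ikzf2 and rest cells. There 1.62% of genes were called higher and 0.445% lower. Without row 11, Mxd4 was called higher in the Ikzf2 cells, at 0.90. Row 11 was the only row short of 1.5-fold, so this call follows from leaving it out. Without it 182 genes were called higher, against 109 with all rows. The Mxd4 difference over all 4 rows was 0.81. It was 0.39 with cells thinned to 1500 UMIs and 0.40 with the limits moved to 1 UMI of Ikzf2 and 2 of Rag1. The rest cells of row 11 stood apart in other genes too. Their G2 and M list summed to 2940 CPM, against 4043, 4031 and 4014 CPM in rows 13, 15 and 17. Their markers of post-selection cells, such as Sox4 and Itm2a, summed to 1925 CPM against 1130, 1167 and 1318 CPM.

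**Figure D2:**
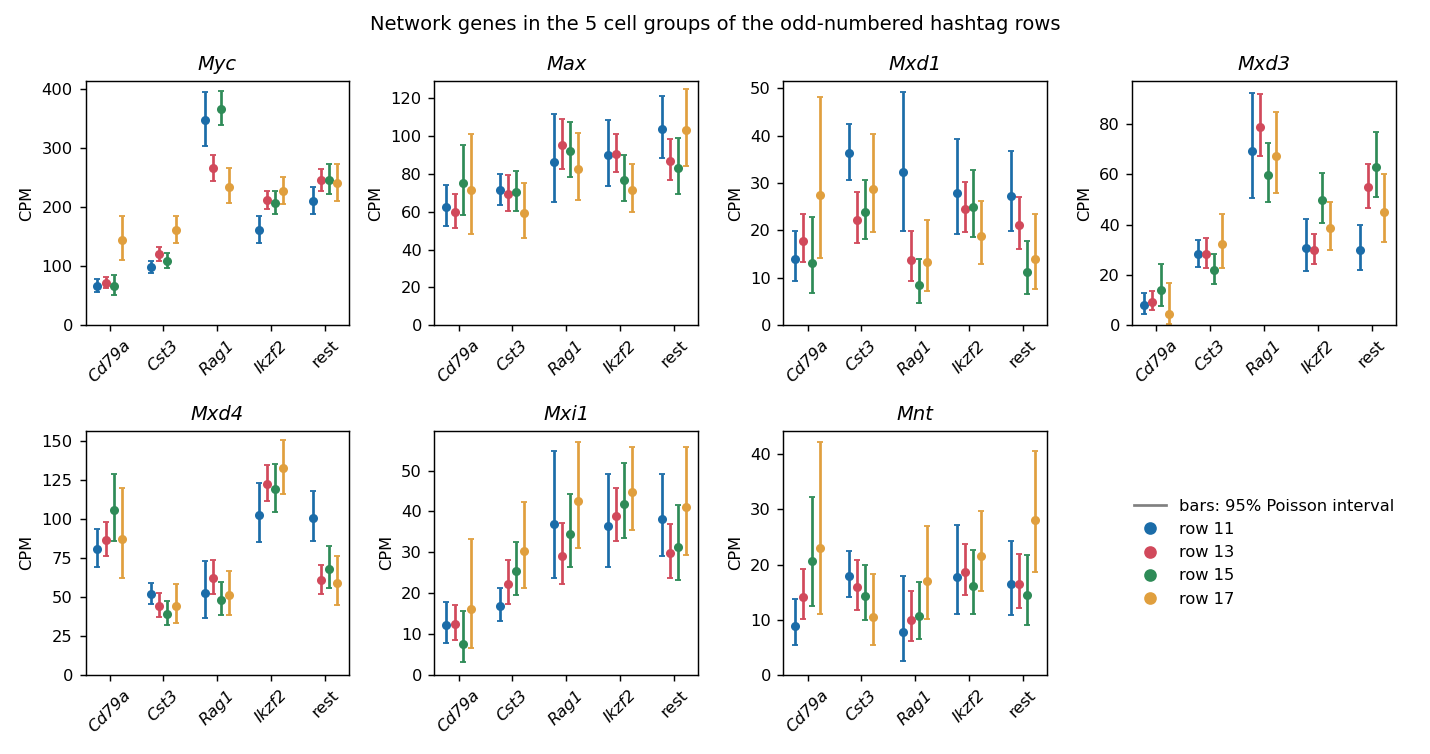
Level (CPM, linear axis from 0) of each network gene in the 5 cell groups of the odd-numbered rows, 1 point per row with its Poisson 95% interval. Myc is lowest in Cd79a cells (66.1 to 145 CPM), and Mxd4 is higher in Ikzf2 cells (103 to 132 CPM) than in Rag1 cells (48.0 to 61.8 CPM) in each row.

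The members were then set against cell division. Cells with at least 5 UMIs over 20 genes of G2 and M phase, such as Mki67, Top2a and Ccnb1, are called mitotic-score cells, and those with 0 such UMIs low-score cells. There were 1669 mitotic-score cells in the odd-numbered rows and 199 in the even-numbered rows, and 558 cells lay at the limit, with 4 or 5 UMIs. The score picks deep cells. In the odd-numbered rows the median was 13475 UMIs for mitotic-score and 3657.5 for low-score cells, and 66.4% of even-row cells had 1 to 4 such UMIs. The part of free RNA in this score was not tested.

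Mxd3 was concentrated in the mitotic-score cells. In the odd-numbered rows these cells held 98.1% of the Mxd3 UMIs, that is 1376 of 1403, but 60.1% of all gene UMIs. In the even-numbered rows they held 60.4% of the Mxd3 UMIs, or 87 of 144, but 5.82% of all gene UMIs. Within the even-numbered rows Mxd3 was at 72.9 CPM in mitotic-score and 1.89 CPM in low-score cells, a 38.5-fold difference with an interval of 20.5 to 80.04. On the log2(CPM + 10) scale the median difference over these rows was 2.69, and it was 2.02 with cells thinned to 1500 UMIs and 1.51 with a limit of 3 UMIs. The levels in mitotic-score cells of rows 12, 14, 16 and 18 were 89.9, 53.6, 43.4 and 86.5 CPM, and those of rows 11, 13, 15 and 17 were 54.2, 60.8, 61.5 and 59.8 CPM.

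Among Ikzf2 cells, the 404 mitotic-score cells had 307 Mxd3 UMIs and the 150 low-score cells 0 of 579097 UMIs. With 3 UMIs over the group as a floor for the latter, Mxd3 was 11.28-fold higher in the former. The interval of the fold from the counts themselves reached lower, to 9.12-fold. Cells with at least 5 UMIs on a list of S phase genes and none on the G2 and M list, 26 to 53 per row, numbered at least 20 in rows 12, 13, 14 and 18. They held 0, 0, 0 and 1 Mxd3 UMI. These limits do not separate S phase from G2 and M. The S phase list summed to 1458, 1423, 1896 and 1610 CPM in these cells. In the mitotic-score cells of the same rows it summed to 2552, 3470, 2831 and 2688 CPM. In mitotic-score cells 17 of 18 S phase genes were called higher within Ikzf2 cells and 16 of 19 in the even-numbered rows. The shares of all genes were 6.16% and 4.32%.

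Mxd4 went the other way. In Ikzf2 cells it was at 53.7, 63.4, 56.6 and 73.9 CPM in the mitotic-score cells of rows 11, 13, 15 and 17, and at 229, 282, 227 and 216 CPM in the low-score cells. No mitotic-score level overlapped a low-score level, and the low-score levels were above those of rows 12, 14 and 18 over all cells. Against the low-score cells of the even-numbered rows, all were above rows 12 and 14, at 158 and 161 CPM. They overlapped rows 16 and 18, at 242 and 226 CPM. Mxi1 followed the same course, at 28.9, 29.6, 25.7 and 36.5 CPM against 54.5, 80.6, 84.0 and 66.6 CPM. In this comparison Mxd3 was called higher, as were 6.16% of 6871 genes, and Mxd4 and Mxi1 lower, as were 5.60%, with differences of 2.73, -1.87 and -0.96. With cells thinned to 1500 UMIs Mxd3 was at 2.84. The Mxd4 call held with thinning, at -1.99, and without cells over 4000 genes, at -1.20. The Mxi1 call was lost with thinning, at -0.19, with median-of-ratios scaling, at -0.82, and with each cell weighted equally, at -0.94. The Mxi1 levels of low-score cells rest on 5, 20, 10 and 8 UMIs. Myc was at 149, 234, 212 and 230.1 CPM against 98.1, 177, 168 and 225 CPM, a difference of 0.35 that was not called.

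Over all cells of the odd-numbered rows Myc, too, was called higher in mitotic-score cells, by 1.07, together with Mxd3 by 2.81, among 11.4% of 6741 genes. Mxd4 was called lower by -1.32, among 5.61%. With cells thinned to 1500 UMIs Mxd3 was at 2.93 and Mxd4 at -1.50. There the cell groups differ in both Myc and division, and the Myc call was lost with cells thinned to 1500 UMIs, at 0.90, and with cells over 4000 genes left out, at 0.76.

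In the even-numbered rows Mxd3 was the only member called, higher among 4.32% of 6386 genes, while 0.391% were called lower. Myc was at 176, 118, 92.2 and 129.8 CPM in the mitotic-score cells of rows 12, 14, 16 and 18 and at 173, 164, 221 and 178 CPM in low-score cells. It was lower in mitotic-score cells of 3 of 4 rows, by less than 1.5-fold in rows 14 and 18, and was not called. With at least 10 UMIs as the limit, both Myc, at -0.98, and Mxd4, at -2.16, were called lower. At 5 UMIs rows 12, 14, 16 and 18 had 54, 56, 27 and 62 mitotic-score cells. How many rows kept the 20 cells needed at 10 UMIs is not given here. The calls at that limit may thus rest on fewer than 4 rows. Far more genes were called lower at that limit than the 0.391% here, with counts given under the processing alternatives, so these calls are not particular to the network. Mxd4 itself was at 118, 111, 141 and 56.9 CPM against 158, 161, 242 and 226 CPM, lower in all 4 rows but by less than 1.5-fold in some.

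**Figure D3:**
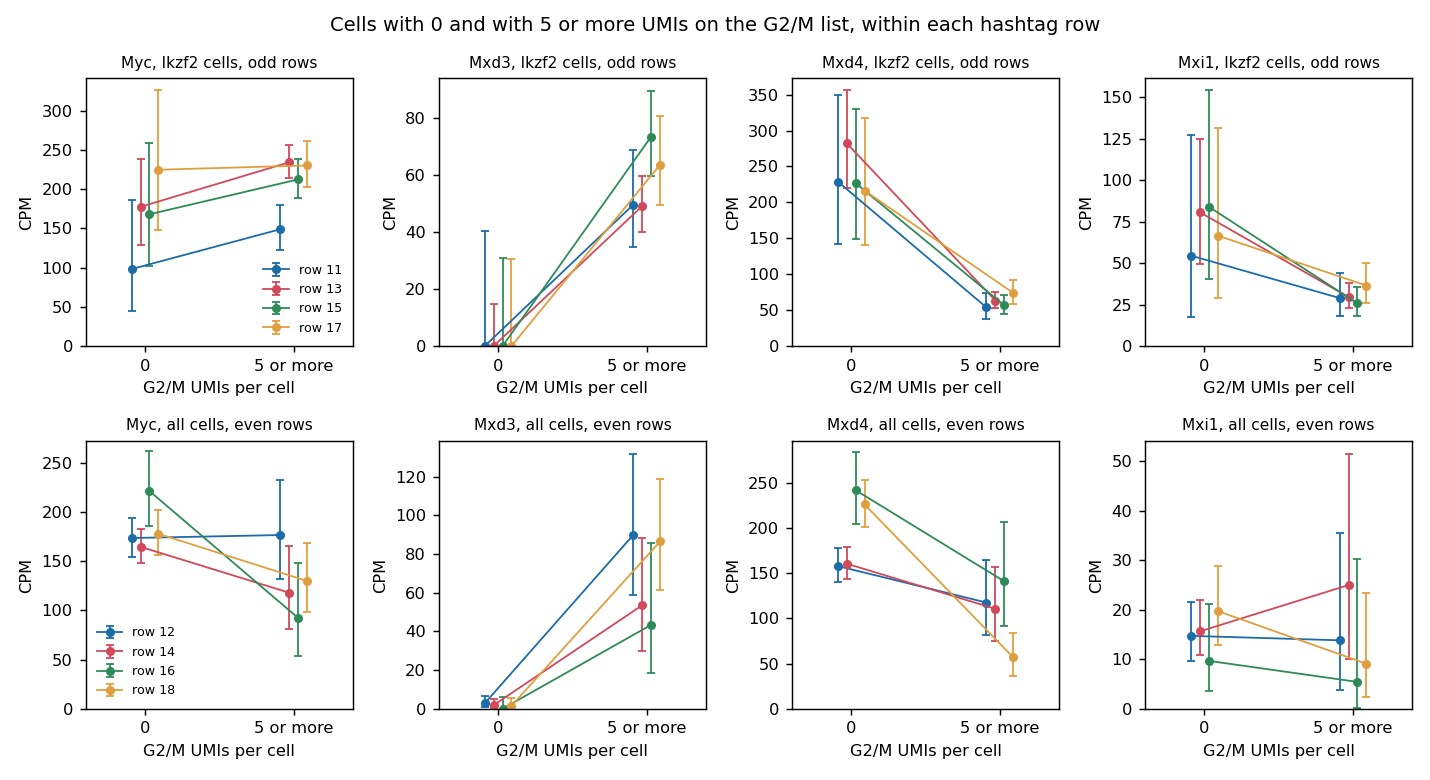
Level (CPM, linear axes from 0) of Myc, Mxd3, Mxd4 and Mxi1 in cells with 0 and with 5 or more UMIs on the G2 and M list, with lines joining the cells of 1 row and Poisson 95% intervals. In Ikzf2 cells Mxd3 goes from 0 to between 49.1 and 73.5 CPM and Mxd4 from between 216 and 282 to between 53.7 and 73.9 CPM.

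A pair of further splits, by Tnfrsf9 and by Ccl5, called no member. Ikzf2 cells with at least 2 UMIs of Tnfrsf9, a gene induced by receptor signals, were set against those with 0. In this comparison 1.80% of genes were called higher and 2.37% lower. Mxd4 was at 129, 127, 162 and 153 CPM against 87.4, 106, 92.2 and 115 CPM, higher in all 4 rows, and Mxd3 at 21.6, 21.7, 33.1 and 6.85 CPM against 29.6, 36.1, 60.2 and 54.5 CPM, lower in all 4 rows. Their median differences were 0.45 and -0.62. Of the G2 and M genes 10 of 20 were called lower in the same cells. In the even-numbered rows, cells with at least 5 UMIs of the chemokine gene Ccl5 were set against cells with Izumo1r and no Ccl5. There 0.418% of genes were called higher and 0.241% lower, and Myc was at 223, 160.3, 141 and 153 CPM against 156, 160, 180.3 and 171 CPM.

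The balance of activator and repressors was followed as Myc UMIs per UMI of Mxd1, Mxd3, Mxd4 and Mxi1 summed. UMI counts of different genes are not on a common scale per length, so the ratio compares cells and not genes. It was 0.884, 1.10, 1.26 and 1.17 in rows 11, 13, 15 and 17 and 0.772, 0.741, 0.741 and 0.607 in rows 12, 14, 16 and 18, without overlap. Of single genes, 34.3% were also called higher and 28.0% lower between these rows. The ratio was not recomputed under the processing alternatives. Among the odd-row groups it ran from 1.35 to 2.44 in Rag1 cells, from 1.07 to 1.51 in rest cells, from 0.737 to 1.19 in Cst3 cells, from 0.815 to 0.986 in Ikzf2 cells and from 0.473 to 1.07 in Cd79a cells, as the plot of Myc relative to the Mxd family shows. Ikzf2 cells differed by division, with 0.281 to 0.750 in low-score and 0.973 to 1.44 in mitotic-score cells, and in each row the mitotic-score cells had the higher ratio. The ratios of low-score Ikzf2 cells rest on 9, 44, 20 and 27 Myc UMIs in rows 11, 13, 15 and 17. In the even-numbered rows the mitotic-score cells had the lower ratio in rows 12, 14 and 16 and the higher one in row 18, at 0.415 to 0.699 against 0.575 to 0.803.

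**Figure D4:**
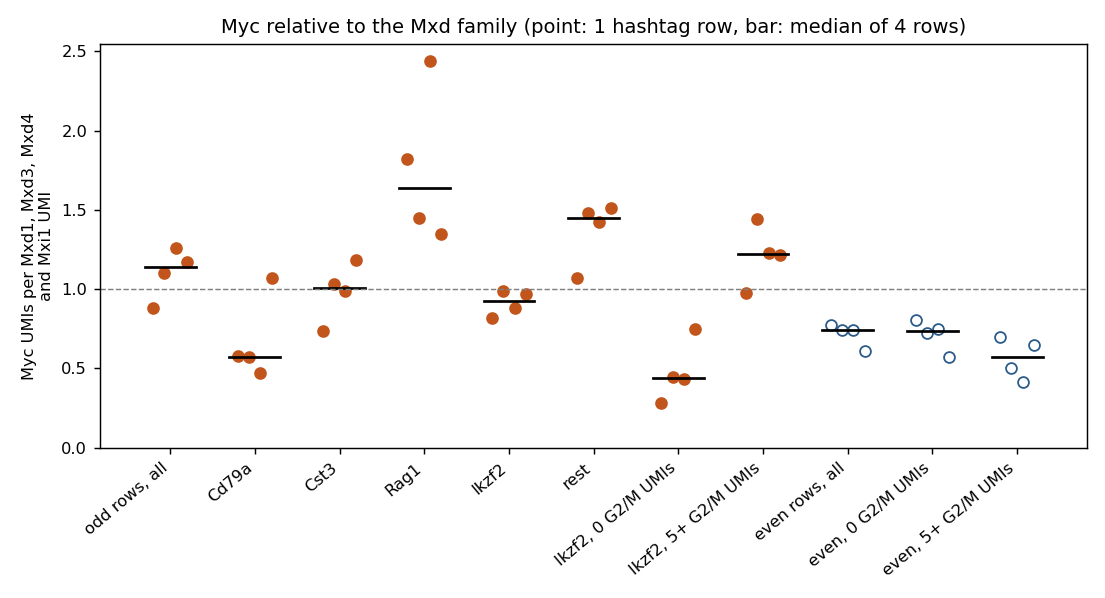
Myc UMIs per UMI of Mxd1, Mxd3, Mxd4 and Mxi1 together (linear axis from 0), 1 point per hashtag row and a bar at the median of 4 rows, with a dashed line at 1. The ratio is 0.884 to 1.26 in all cells of the odd-numbered rows and 0.607 to 0.772 in the even-numbered rows.

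Genes listed as induced by Myc were mostly higher in the odd-numbered rows, whereas Myc overlapped. Of 34 such genes at 20 CPM or more, 26 were called higher and 2 lower, beside 34.3% and 28.0% of all genes, with a median difference of 0.73 against 0.07 for all genes. The division genes differed more, with 20 of 20 G2 and M genes called higher at a median of 2.13 and 17 of 18 S phase genes at 1.52. Ran, a nuclear transport GTPase, had a median of 1125 CPM against 438 CPM, and Shmt1, an enzyme of one-carbon metabolism, 52.6 against 11.2 CPM. The mitochondrial chaperone gene Hspd1 stood at 440.4 against 187 CPM. The 2 lower genes were Ccnd2, which encodes cyclin D2, at 97.0 against 387 CPM, and Slc3a2, a subunit of an amino acid transporter, at 109 against 183 CPM, which was chosen after its values were seen.

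With Ikzf2 cells alone against the even-numbered rows, 31 of 34 were called higher and 2 lower, beside 44.9% and 22.6% of all genes, with a median of 0.73 against 0.18. The genes for division moved along in these cells, with all 20 G2 and M genes and 18 of 18 S phase genes called higher. The part of division in the target levels was not tested beyond the split by score. Within Ikzf2 cells, 11 of 34 target genes were called higher in mitotic-score cells and 0 lower, beside 6.16% and 5.60% of all genes, at a median of 0.85 against -0.08. Ran was at 1427 against 450.1 CPM there, and Srm, a polyamine enzyme, at 240.1 against 77.2 CPM. In even-numbered rows 4 of 30 were called higher, beside 4.32% of all genes, at a median of 0.25 against -0.02, among them Mthfd2 and Ran. In Cd79a cells 20 of 33 were called lower and 1 higher against rest cells, beside 20.4% and 7.90% of all genes, at -1.34 against -0.45. Cdk4 was at a median of 149.7 against 571 CPM. The division genes were lower there too, with 16 of 18 S phase genes called lower at a median of -1.86 and 16 of 20 G2 and M genes at -1.67, and their part in the target levels was not tested.

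Partners and rivals of the network were less uniform. Of the 8 extension genes compared between odd-numbered and even-numbered rows, the deacetylase genes Hdac1 and Hdac2 were called higher and Mlx and Mlxip, which encode a Max-like protein and its partner, lower. Hdac2 was at 148 against 70.4 CPM. Txnip, a glucose-responsive target of Mlxip and Mlx, was at 72.1 CPM in the odd-numbered and 221 CPM in the even-numbered rows, and at 37.9 CPM in Ikzf2 cells. Of the 10 cofactor and turnover genes, Ruvbl1, Ruvbl2 and Wdr5 were called higher, and 0 lower. The shares called higher in both lists, and the share of the extension genes called lower, were near the 34.3% and 28.0% of all genes. With Ikzf2 cells alone against the even-numbered rows, 8 of 11 cofactor genes and 5 of 8 extension genes were called higher, beside 44.9% of all genes, and 0 and 1 lower, beside 22.6%. Within Ikzf2 cells, 1 of 11 cofactor genes was called higher in mitotic-score cells and 0 lower, beside 6.16% and 5.60% of all genes. The gene was Cip2a, whose product protects Myc from a phosphatase, at 59.4 CPM in mitotic-score and 4.03 CPM in low-score cells. Of the 5 genes listed as repressed by Myc, only 1 was compared between odd-numbered and even-numbered rows. This gene, Cdkn1b, which encodes the cycle inhibitor p27, was called lower in the odd-numbered rows, at 75.2 against 116 CPM, as were 28.0% of all genes.

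**Figure D5:**
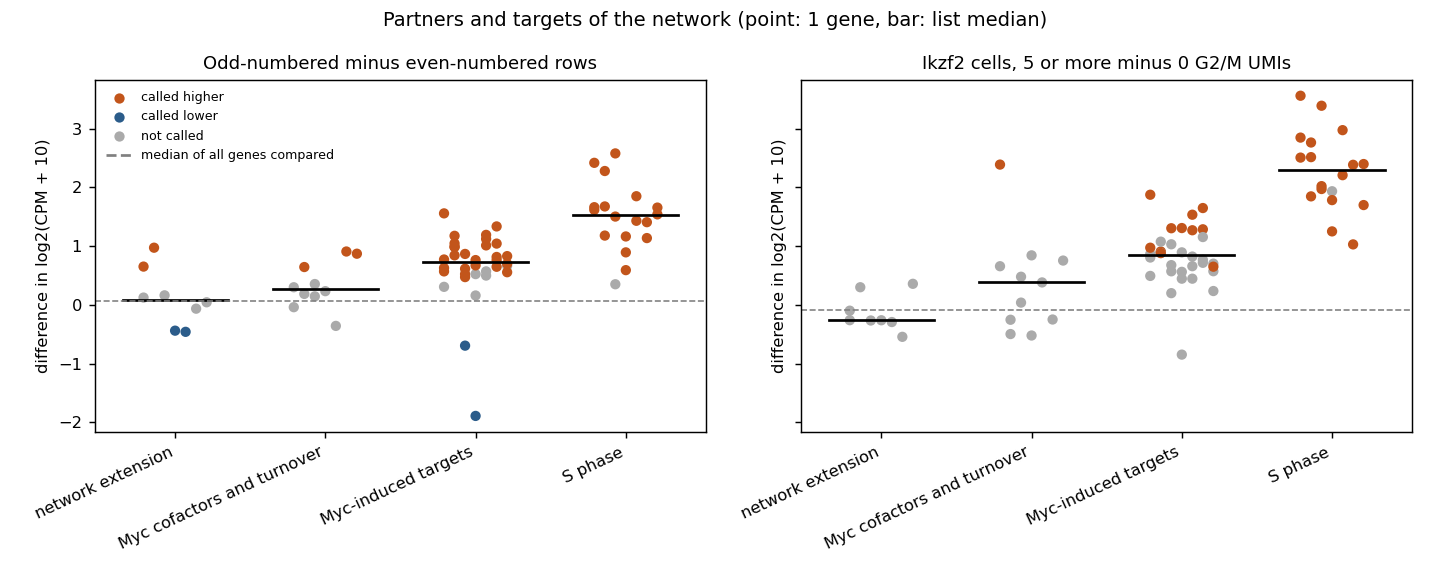
Difference in log2(CPM + 10) of each gene of 4 lists, for odd-numbered minus even-numbered rows and for Ikzf2 cells with 5 or more minus 0 UMIs on the G2 and M list, with a bar at each list's median and a dashed line at the median of all genes compared. Of 34 Myc-induced genes 26 are called higher in the first comparison and 11 in the second.

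Genes whose levels followed each member were sought over 24 profiles, the 4 even-numbered rows and the 5 groups of each odd-numbered row, among 6663 genes. The profiles share 1 library and in part the same rows, so the correlations are descriptions. For Myc the closest were Lbr, Impdh1, Exosc4, Mtap and 1700037H04Rik, with Pearson r from 0.953 to 0.956. For Mxd3 they were Pbk, a mitotic kinase, Neil3 and Cdc25a, at 0.973 to 0.981. For Mxd4 they were Pdcd4, Il2rg, Ccnd2, Arhgef3 and Rapgef6, at 0.920 to 0.940. Mxi1 was closest to Actn1, Ssbp3 and Ldhb at 0.954 to 0.956, Max to Spata13, Stim1 and Tle5 at 0.881 to 0.914, Mxd1 to Dnajc14, Prex1 and Ifnar1 at 0.858 to 0.870, and Mnt to Smim10l1, Cdk5 and Glul at 0.693 to 0.736. Among the members, Mxd3 and Mxi1 had the highest r, 0.813, and Mxd3 and Mxd4 the lowest, -0.59.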

How the data were processed

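The authors ran Cell Ranger 6.0.0 with a prebuilt mouse mm10 reference on 1 pooled 5′ library of transcripts and 1 library of hashtags. The deposited counts are raw UMI counts of each feature in each barcode, for 32285 genes, 20 hashtag rows and 16179 barcodes. Cells were kept at 1000 genes, 5% mitochondrial UMIs and a hashtag share of 80%, which left out 2140 barcodes with no single hashtag, doublets of hashtags among them. No other doublet caller was run, and free RNA was not removed.

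UMIs were summed over the cells of a row or group and given as CPM. Differences use log2(CPM + 10). Rows were not assigned to populations, so there is no test, and calls are descriptions. Depth differed between cells. Thinning to 1500 UMIs gave each cell the same depth in the sums and left out 223 cells. Groups and scores were set on the full counts before thinning, so their own dependence on depth remained. Named genes were the members, the cell type markers, of each list up to 4 genes with the largest difference, and the 5 genes most correlated with Myc and with Mxd4 and the 3 with each other member. The members and lists were chosen with earlier results of these data known. Mxd3 shares 103 annotated bases with Prelid1 on the other strand, Mxd1 overlaps Gm38850, and Mxi1 overlaps Gm30541. The sources used here do not say how reads of overlapping genes were assigned. The call rules were also tested on simulated data, whose outcome is not given here and bears on no call. Alternatives changed the cell filters, the scaling, the pseudocount, the weight of cells, the group limits and the CPM limit, and left out each row in turn. Sequences are from RefSeq on GRCm38.p6. Python 3.11.15, numpy 2.4.6 and scipy 1.17.1 were used.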

Additional observations from a re-analysis of the deposited data

Results flagged for a closer look

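Hashtag rows outside rows 11 to 18 were used in no comparison, and each held UMIs above the 3 that a count of 0 allows. Rows 1 and 4 held the most, with 12255 and 11854 UMIs. Rows 2, 3, 5, 6, 7 and 8 held 300, 54, 33, 161, 599 and 231 UMIs. Rows 9, 10, 19 and 20 held 14, 26, 60 and 12 UMIs. All of them together are small beside the 34861260 UMIs on rows 11 to 18. The labels name hashtags 1 to 8 for the populations, and which population each of rows 11 to 18 holds was not settled here.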

How the results depend on the processing

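The rows carry no stage, genotype or labelled replicate, and 1 library was sequenced. Mitotic-score cells are deeper than low-score cells, so a part of depth cannot be told apart from the score. Thinning came after the cells were scored and grouped on all their UMIs, so it cannot separate depth from the score either. Rows could not be paired with one another, because the hashtag rows carry no replicate numbers. Differences between cell groups were taken within each row, which pairs the groups by row. No called difference changed direction under the alternatives run. Of the network values, 302 moved by less than the counting interval and 34 by more; of the gene counts, 93 stayed within 1.5 times and 23 did not. The causes of the changes were not tested.

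For odd-numbered minus even-numbered rows, leaving out cells over 4000 genes gave -0.30 for Myc, -0.70 for Mxd1, 0.93 for Mxd3 and -0.83 for Mxd4. Median-of-ratios scaling gave -0.02 for Myc. A pseudocount of 1 gave -1.22 for Mxd1, 2.38 for Mxd3 and 0.95 for Mxi1. Equal weight per cell gave -0.10 for Myc, -0.71 for Mxd1, 1.24 for Mxd3, -0.74 for Mxd4 and 0.01 for Mnt, and thinning gave -0.08 for Myc and -0.68 for Mxd4. Genes called higher numbered 2297 and lower 1872; with a limit of 5 CPM 3510 were higher, and with no limit 5346 were higher and 2944 lower. Leaving out each row gave 0.01 to 0.19 for Myc, -1.13 to -0.77 for Mxd1, 1.41 to 1.70 for Mxd3 and -1.35 to -1.08 for Mxd4. Without row 17, the only odd-numbered row within the even-numbered range for Mnt, this gene no longer overlapped, at -0.24.

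For Ikzf2 minus rest cells, Myc was 0.02 with equal weight and with thinning, 0.15 with 1 UMI of Ikzf2 and 2 of Rag1 as limits, and 0.23 without cells holding a G2 or M UMI. Mxd4 was 0.39 with thinning, 0.40 with those limits and 0.51 without those cells, where Mxi1 was 0.83 and Mnt -1.01. The 109 genes called higher became 51 with the other limits and 113 to 182 without a row, the most without row 11. The 30 called lower became 91 without cells over 4000 genes, 47 with a pseudocount of 1, 50 with equal weight, 49 with thinning, 11 with the other limits and 104 without cells holding a G2 or M UMI.

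For mitotic-score minus low-score cells, a pseudocount of 1 gave 5.94, 5.84 and 4.84 for Mxd3 in the odd-numbered rows, their Ikzf2 cells and the even-numbered rows. Leaving out cells over 4000 genes gave -0.99 and -1.20 for Mxd4 in the first 2. In the odd-numbered rows 767 genes were called higher, 458 with thinning. There 378 were called lower, 175 without cells over 4000 genes, 240 with a limit of 3 UMIs, and 408 to 678 without a row, the most without row 11. Without row 17, the only row short of 1.5-fold for Mxd1, this gene was called lower there, at -1.08. In Ikzf2 cells 385 were called lower, 144 without cells over 4000 genes and 240 with thinning. In the even-numbered rows Mxd3 was 2.02 with thinning, 1.51 with a limit of 3 UMIs and 3.62 with a limit of 10, where Myc was -0.98 and Mxd4 -2.16. There 276 were called higher, 182 with thinning, 62 at 3 UMIs and 1064 at 10. The 25 called lower became 48 without ribosomal protein, mitochondrial and Gm genes, 45 with a pseudocount of 1 and 6 with equal weight. They became 0 at 3 UMIs, 770 at 10, and 39 to 65 without a row. A call needs every row, so leaving out a row tends to raise the count. The counts at 10 UMIs may likewise rest on fewer rows.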
